A study of Mus musculus with 4 samples.

Results

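Alveolar macrophages (AM) of WT and TREM2-/- mice were compared for the genes that make heme and move iron. Of these, Alas2, the first enzyme of heme synthesis in red cell precursors, and Slc40a1, which encodes the iron exporter ferroportin, were higher in TREM2-/- AM, by 1.44 and 0.84 on the log2 scale. The other 7 measured members, among them the general first enzyme Alas1, the last enzyme Fech and the transferrin receptor Tfrc, did not pass the test. On the same arrays, 4 probe sets shared by adult globin genes were higher in TREM2-/- AM by 2.21 to 2.26, of which 3 passed. The part of red cell RNA in the Alas2 values was not tested. The 10 members are Alas1, Alas2, Fech, Tfrc, Slc11a1, Slc11a2, Steap3, Slc40a1, Cp and Hamp. A member was measured where the platform's annotation gave its symbol alone to a probe set, and for genes with several probe sets 1 was selected on the highest mean log2 value over the 4 arrays. This left 9 of the 10 members, out of 19946 genes with a row. The expression of Slc11a1 was not analysed here.

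AM were recovered by bronchoalveolar lavage, a wash of the airways, from untreated mice, and total RNA was hybridized to Affymetrix mouse gene arrays. The WT mice were C57/Blk6, and the TREM2-/- mice carried a mutation of Trem2, a receptor of myeloid cells, backcrossed for 10 generations to C57/Blk6. Mice of both genotypes were 8 to 10 weeks old and matched for sex. The WT mice came from a commercial breeder and both genotypes were bred in 1 facility. Each genotype had 2 arrays, each of RNA from pooled mice. How many mice a pool held, and whether the pools of a genotype held different mice, is not stated, so all p-values measure only how far these arrays differ among themselves, and that spread may be technical. Values are log2 expression after robust multi-array average (RMA) normalization, and every difference is TREM2-/- minus WT on that log2 scale. In bulk RNA, more cells of a type and more RNA per cell cannot be told apart. The lower quartile of all probe sets lay at 4.39 to 4.40 on each array, and a gene under it is called dim here. Pearson's r across probe sets was 0.994 between the WT arrays and 0.995 between the TREM2-/- arrays. Trem2 itself measured 9.58 and 9.74 in WT AM against 7.64 and 7.45 in TREM2-/- AM, a difference of -2.11 (standard error 0.10, adjusted p = 0.0009 from limma).

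Heme is built from glycine and succinyl-CoA by a chain of enzymes that starts and ends in the mitochondrion. The first step, aminolevulinate synthase, exists as ALAS1 in all cells and as ALAS2 in the erythroid lineage, and ferrochelatase closes the chain by inserting iron. AM take up iron bound to transferrin or in engulfed cells, store it in ferritin, release it from heme through heme oxygenase, and export it through ferroportin, which the hormone hepcidin removes from the surface.

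The upstream sequences of both aminolevulinate synthase genes are shown because one gene of the pair was higher in TREM2-/- AM and the other did not pass the test. They are the 250 bases before the annotated RefSeq start in assembly GRCm38.p6, written on the strand of the gene, with Alas2 at chrX:150547167-150547416 on the plus strand and one of the windows of Alas1 at chr9:106247955-106248204 on the minus strand. Capitals mark matches to AGATAA, a motif that erythroid GATA factors can bind, and to CACCC, a motif of erythroid Krüppel-like factors, on either strand.
Alas2: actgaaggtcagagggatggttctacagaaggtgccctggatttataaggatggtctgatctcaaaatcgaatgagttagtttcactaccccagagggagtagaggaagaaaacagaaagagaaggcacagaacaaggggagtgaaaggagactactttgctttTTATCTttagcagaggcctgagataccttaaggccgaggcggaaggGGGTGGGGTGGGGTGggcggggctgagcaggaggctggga
Alas1: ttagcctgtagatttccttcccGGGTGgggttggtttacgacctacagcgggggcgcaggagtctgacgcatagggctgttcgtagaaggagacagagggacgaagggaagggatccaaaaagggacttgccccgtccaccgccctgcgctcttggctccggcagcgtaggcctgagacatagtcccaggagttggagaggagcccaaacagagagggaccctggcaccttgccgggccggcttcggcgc
The window of Alas2 held 1 AGATAA match, starting 86 bases before the start of the gene, and 3 CACCC matches in a row, none overlapping another motif. The window of Alas1 held no AGATAA match and 1 CACCC match. AGATAA was present in 9.99% of 32851 RefSeq windows of this length and CACCC in 52% of them. Windows were at hand for 7 members, 13 windows in all, of which 3 held AGATAA (1 each of Alas2, Hamp and Steap3) and 11 held CACCC. These matches describe the letters of the windows, and binding was not measured.

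Of the 9 measured members, 2 were higher in TREM2-/- AM at an adjusted p below 0.05 from limma and 0 were lower. At an unadjusted p below 0.05 limma gave 3 higher and 1 lower, and SAM (significance analysis of microarrays, the test the study's methods name) called 2 higher and 0 lower. Over all 19946 genes, 0.431% were called higher (86 genes) and 0.135% lower (27 genes). At the unadjusted threshold the shares over all genes were 4.64% higher and 6.9% lower, and by SAM 0.867% higher and 0.0953% lower. The members had been proposed with earlier results of these arrays in view, so their count is a description. The 2 arrays of one genotype lay wholly above the 2 of the other for 4 members in favour of TREM2-/- AM and for 4 in favour of WT AM, where 17.4% and 25.4% of all genes did so. The median difference of the 9 members was -0.14, against -0.02 over all genes. The higher ones were Alas2, Fech, Slc40a1 and Cp, and the lower ones were Alas1, Slc11a2, Tfrc and Steap3.

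**Figure D1:**
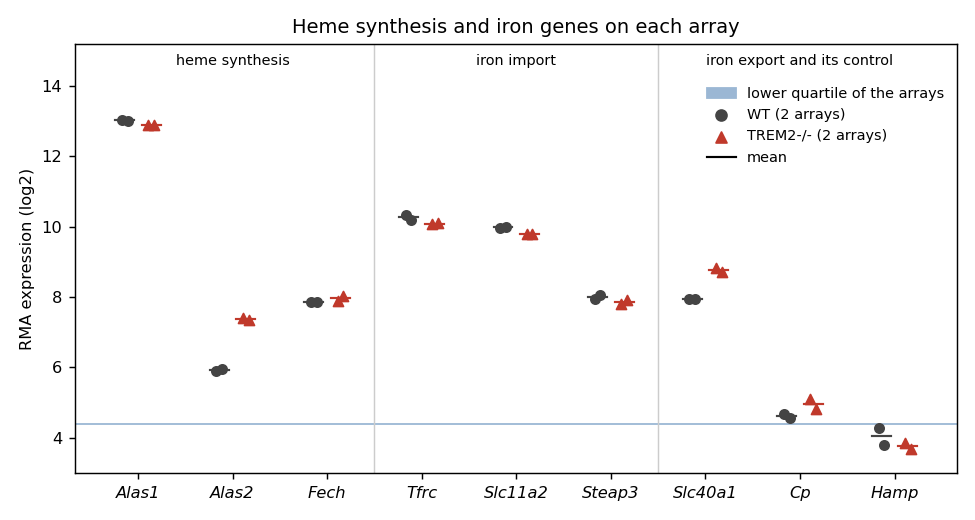
RMA expression (log2, vertical axis) of the 9 measured members on each of the 4 arrays, WT as grey circles and TREM2-/- as red triangles with a bar at each mean; the blue line is the lower quartile of the arrays. The Alas2 arrays lie at 5.90 and 5.96 in WT AM and at 7.39 and 7.34 in TREM2-/- AM, and Hamp lies under the blue line on all 4 arrays.

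Among the heme synthesis members, Alas2 differed most between the genotypes. Alas2 (probe set 10602372, chromosome X) measured 5.90 and 5.96 on the WT arrays and 7.39 and 7.34 on the TREM2-/- arrays. The genotypes were far apart, with each pair of arrays closely spaced. The difference of 1.44 (standard error 0.07, 95% interval 1.26 to 1.62, adjusted p = 0.0012 from limma) is a 2.71-fold higher signal in TREM2-/- AM. Alas2 passed the test with any 1 array left out, at adjusted p = 0.012 to 0.017 from limma.

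Alas1, the synthase of other cells, measured 13.05 and 13.01 in WT AM and 12.89 and 12.89 in TREM2-/- AM. The TREM2-/- arrays lay slightly under both WT arrays, but the difference of -0.14 (95% interval -0.31 to 0.04) did not pass the test (adjusted p = 0.54 from limma). With an intensity trend and robust variance in limma the adjusted p of Alas1 was 0.039. Fech, the ferrochelatase, measured 7.87 and 7.86 in WT AM and 7.89 and 8.04 in TREM2-/- AM. The second TREM2-/- array stood above the other 3, which were almost level, and the difference of 0.10 (95% interval -0.10 to 0.29) did not pass (adjusted p = 0.71 from limma). Of the 8 measured enzymes of heme synthesis, 1 was higher, Alas2, against 0.431% of all genes, and 7 did not pass. The list median was 0.05. Cpox, the coproporphyrinogen oxidase of the later steps, differed by 0.01 (adjusted p = 0.97 from limma).

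The iron import members had lower means in TREM2-/- AM, and none passed the test. Slc11a2, which encodes the iron transporter DMT1 of endosomes, measured 9.97 and 10.00 in WT AM against 9.80 and 9.78 in TREM2-/- AM. Its arrays did not overlap, and the difference of -0.19 had a 95% interval of -0.36 to -0.02, but the adjusted p was 0.39 from limma. Tfrc, the transferrin receptor, measured 10.35 and 10.18 in WT AM against 10.08 and 10.10 in TREM2-/- AM, a difference of -0.18 (95% interval -0.38 to 0.03, adjusted p = 0.50 from limma). One WT array lay well above the other 3, which were close together. Steap3, the reductase that readies endosomal iron for transport, measured 7.94 and 8.07 in WT AM against 7.81 and 7.91 in TREM2-/- AM. The nearest arrays of the genotypes were almost level, and the difference of -0.15 (95% interval -0.35 to 0.06) did not pass (adjusted p = 0.56 from limma).

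On the export side, Slc40a1 (probe set 10354374, chromosome 1) measured 7.94 and 7.94 on the WT arrays and 8.83 and 8.73 on the TREM2-/- arrays. Both TREM2-/- arrays were well above the WT arrays, which were level. The difference was 0.84 (standard error 0.08, 95% interval 0.65 to 1.02, adjusted p = 0.013 from limma), a 1.79-fold higher signal in TREM2-/- AM. Leaving out any 1 array kept the difference between 0.79 and 0.89 but ended the call, at adjusted p = 0.068 to 0.10 from limma. Cp, which encodes the ferroxidase ceruloplasmin that oxidizes exported iron, measured 4.67 and 4.55 in WT AM against 5.09 and 4.83 in TREM2-/- AM. It was just over the lower quartile of the arrays and higher on both TREM2-/- arrays, but the difference of 0.35 (95% interval 0.08 to 0.61) did not pass (adjusted p = 0.33 from limma). Hamp, the gene of hepcidin, was dim, at 4.27 and 3.80 in WT AM and 3.86 and 3.68 in TREM2-/- AM. Its arrays overlapped between the genotypes, and the difference of -0.27 (95% interval -0.66 to 0.12) did not pass (adjusted p = 0.59 from limma).

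**Figure D2:**
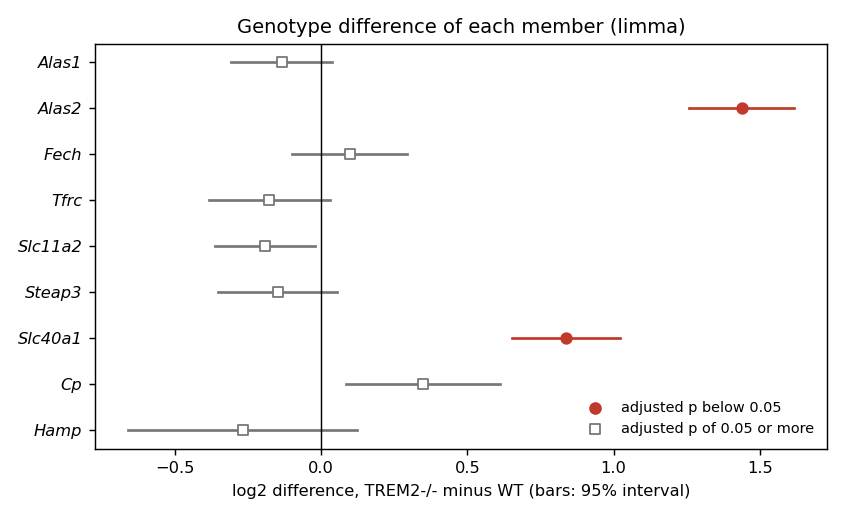
Difference between genotypes for each measured member (log2, TREM2-/- minus WT, horizontal axis) with its 95% interval from limma; filled red circles passed the adjusted threshold of 0.05 and open squares did not. The intervals of Alas2 (1.26 to 1.62) and Slc40a1 (0.65 to 1.02) lie far to the right of 0, while those of Slc11a2 (-0.36 to -0.02) and Cp (0.08 to 0.61) leave out 0 without passing after adjustment.

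The further genes of heme and iron handling were read from 7 lists by role, of whose 82 entries 77 were measured. In these lists 4 genes were higher in TREM2-/- AM and 0 were lower by limma, against 0.431% and 0.135% of all genes. Without the members 2 of 68 were higher, Fabp1 and Spic, beside the same shares. At an unadjusted p below 0.05 limma gave 15 higher and 5 lower of the 77, and SAM called 5 higher and 0 lower, where the shares over all genes were 4.64% and 6.9% unadjusted and 0.867% and 0.0953% by SAM. Fabp1, a fatty acid binding protein that also binds heme, measured 6.91 and 6.95 in WT AM against 7.78 and 7.55 in TREM2-/- AM. Both TREM2-/- arrays were higher, by 0.74 (standard error 0.10, adjusted p = 0.045 from limma). Spic, the transcription factor that red pulp macrophages need to handle iron from red cells, measured 4.57 and 4.82 in WT AM against 5.42 and 5.52 in TREM2-/- AM. It was low in both genotypes and higher in TREM2-/- AM by 0.77 (standard error 0.10, adjusted p = 0.049 from limma). Neither Fabp1 nor Spic passed with any 1 array left out or after quantile normalization, where the adjusted p was 0.053 and 0.054 from limma.

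No gene of iron storage passed the test. The storage list had 6 measured genes and 0 calls, with a median of 0.03 and a range of 0.00 to 0.09, and also 0 calls by SAM and 0 at an unadjusted p below 0.05. Fth1, the ferritin heavy chain, differed by 0.04 (adjusted p = 0.85 from limma) and Ftl1, the light chain, by 0.01 (adjusted p = 0.98 from limma). In the list of heme uptake, export and breakdown, 1 of 14 was higher, Fabp1, against 0.431% of all genes. The list median was 0.00. Hmox1, the inducible heme oxygenase, measured 11.90 and 12.04 in WT AM against 12.24 and 12.21 in TREM2-/- AM. Both TREM2-/- arrays were higher, but the difference of 0.25 did not pass (adjusted p = 0.34 from limma). Blvra, a biliverdin reductase that acts after heme oxygenase, differed by 0.01 (adjusted p = 0.97 from limma).

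The import and reduction list had 15 measured genes and 0 calls by limma (3 higher and 1 lower at an unadjusted p below 0.05), with a median of -0.15, and 9 of them had both TREM2-/- arrays under both WT arrays, as did 25.4% of all genes, while 4 had both above, as did 17.4%. Trf, the gene of transferrin, went the other way, with 12.22 and 12.21 in WT AM against 12.55 and 12.56 in TREM2-/- AM. Each pair of arrays was nearly level and the pairs were apart, yet the difference of 0.34 (standard error 0.07) did not pass (adjusted p = 0.16 from limma), while SAM called it higher. In the list of export and its control, 1 of 13 was higher, Slc40a1, against 0.431% of all genes, and the median was -0.09. Hfe, which takes part in sensing transferrin iron, differed by 0.32 (adjusted p = 0.19 from limma). The list of mitochondrial carriers had 11 measured genes, 0 calls by limma or SAM (1 higher and 2 lower at an unadjusted p below 0.05) and a median of -0.07, with Tmem14c, a carrier of heme precursors, at -0.10 (adjusted p = 0.65 from limma) and Slc25a39, a mitochondrial carrier, at -0.05 (adjusted p = 0.85 from limma). Of the 10 regulators, 1 was higher, Spic, against 0.431% of all genes, and the median was 0.10. Among these regulators 7 had both TREM2-/- arrays above both WT arrays, as did 17.4% of all genes. Nfe2l2, which encodes the stress factor NRF2, differed by 0.06 (adjusted p = 0.81 from limma) and Hif1a, the oxygen-responsive factor, by 0.20 (adjusted p = 0.40 from limma).

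**Figure D3:**
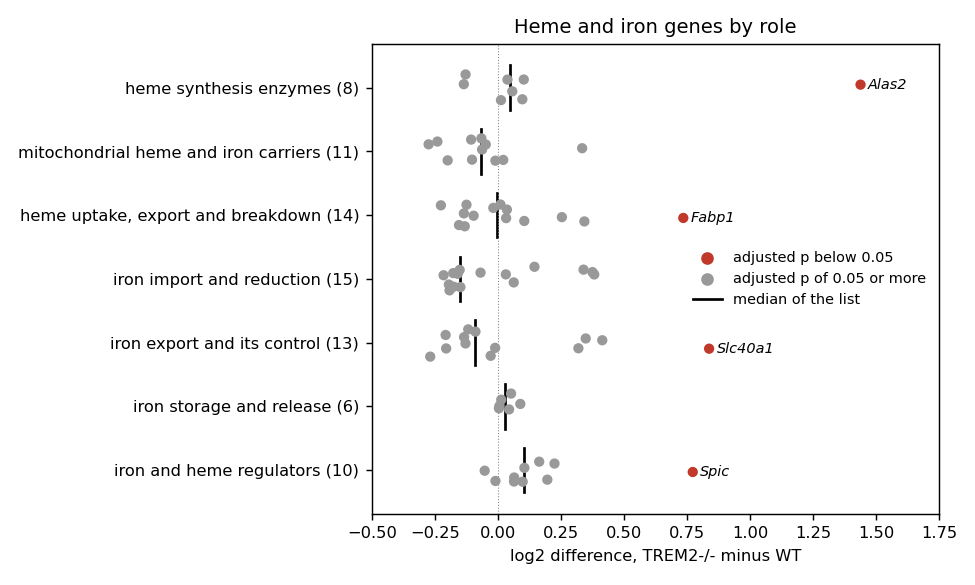
Difference between genotypes (log2, TREM2-/- minus WT, horizontal axis) of the 77 measured genes in 7 lists by role, 1 point per gene, with the number measured after each list name, the list median as a black bar and called genes in red. The called genes are Alas2 at 1.44, Slc40a1 at 0.84, Spic at 0.77 and Fabp1 at 0.74, and the storage genes lie within 0.00 to 0.09.

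Because Alas2 is known as an erythroid gene, the globin probe sets and other erythroid genes were read beside it. Adult globin genes share sequence, and 4 probe sets were annotated to several of them together, 2 to Hba-a2 and Hba-a1 and 2 to Hbb-bt, Hbb-bs, Hbb-b2 and Hbb-b1, so no single gene can be named. These were compared in a limma fit of all 35557 probe sets, in which 0.0591% were called higher (21 probe sets). One alpha globin probe set measured 9.81 and 9.82 in WT AM against 12.05 and 12.01 in TREM2-/- AM, a difference of 2.21 (standard error 0.07, adjusted p = 0.017 from limma). The other measured 9.57 and 9.59 in WT AM against 11.84 and 11.80 in TREM2-/- AM, a difference of 2.23 (adjusted p = 0.017 from limma). The genotypes were far apart in both, with little spread between arrays.

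One beta globin probe set measured 10.40 and 10.43 in WT AM against 12.76 and 12.58 in TREM2-/- AM, a difference of 2.26 (standard error 0.09, adjusted p = 0.030 from limma). The other measured 10.36 and 10.45 in WT AM against 12.78 and 12.52 in TREM2-/- AM, and its difference of 2.24 (standard error 0.12) just missed the threshold (adjusted p = 0.051 from limma). Thus 3 of these 4 probe sets passed, with differences of 2.21 to 2.26. In the same fit Alas2 passed (adjusted p = 0.047 from limma) and Slc40a1 did not (adjusted p = 0.17 from limma). The 4 probe sets of a single embryonic or related globin gene each, Hba-x, Hbb-bh1, Hbb-bh2 and Hbb-y, differed by -0.07 to 0.15 and none passed.

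No other erythroid gene that was listed and measured passed the test. Of 23 listed erythroid markers, 15 were measured under 1 symbol, and 0 were called by limma or by SAM, with a median of -0.08. At an unadjusted p below 0.05 from limma 0 were higher and 1 gene was lower, against 4.64% and 6.9% of all genes. That gene, named after its values were seen, was the transcription factor Gata1, at a difference of -0.24. The differences of the 15 ranged from -0.28 to 0.15. Their summed linear signal was 762 and 767 on the WT arrays and 731 and 710 on the TREM2-/- arrays, the TREM2-/- arrays being slightly lower. Of the other entries, 5 were adult globin genes of the joint probe sets. Tal1, an erythroid and hematopoietic transcription factor, differed by -0.03 (adjusted p = 0.89 from limma) and Epor, the erythropoietin receptor, by 0.00 (adjusted p = 0.996 from limma). The part of red cell RNA in the values of Alas2 was not tested.

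**Figure D4:**
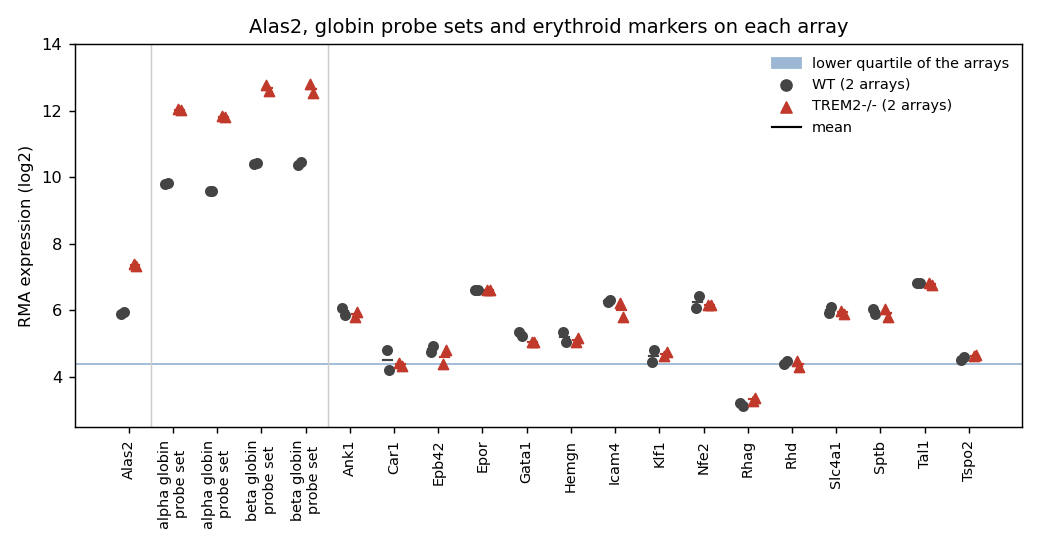
RMA expression (log2, vertical axis) of Alas2, the 4 probe sets shared by adult globin genes and the 15 measured erythroid markers on each of the 4 arrays, WT as grey circles and TREM2-/- as red triangles with a bar at each mean, and the lower quartile of the arrays as a blue line. Alas2 and the globin probe sets stand higher in TREM2-/- AM, by 1.44 and by 2.21 to 2.26, while the median of the markers differs by -0.08.

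Markers of other cells that a lavage could hold were read for the same arrays. Over all genes, limma called 0.431% higher and 0.135% lower, and SAM 0.867% and 0.0953%. At an unadjusted p below 0.05 from limma the shares were 4.64% and 6.9%. In the list of interstitial or monocyte-derived macrophages, 10 of 17 measured genes were higher in TREM2-/- AM and 0 were lower, with a median of 0.67. They were Pf4 (difference 1.98), Apoe (1.67), Tmem176b (1.26), H2-Ab1 (1.09), H2-Aa (1.02), Cd74 (0.86), Ccr2 (0.81), Cx3cr1 (0.67), F13a1 (0.67) and Cd14 (0.56). The 7 that did not pass were Tmem176a (0.79), Fn1 (0.42), Ms4a7 (0.36), Csf1r (0.13), Maf (-0.01), Folr2 (-0.07) and Lyve1 (-0.09). SAM called 11 of the 17 higher, leaving out any 1 array left 3 to 5 called, and the fit of all probe sets left 0. The summed linear signal of the list was 16514 and 16412 on the WT arrays against 25816 and 25421 on the TREM2-/- arrays, which did not overlap. Of 13 alveolar macrophage markers, Car4 alone was higher, by 0.90, a call lost in 3 of the 4 fits without an array and in the fit of all probe sets, and Lpl and Ctsk, the brightest of that list, differed by -0.08 and -0.06. The summed linear signals of this list were 52388 and 51937 in WT AM and 52821 and 51650 in TREM2-/- AM, and the genotypes overlapped. Such a sum weighs the brightest genes most, covers 13 of the 16 listed markers, and cannot tell how pure the AM were. Lung epithelium had 2 of 16 genes higher, Cldn18 (1.23) and Scgb1a1 (0.91), with Napsa (-0.03) and Cdh1 (-0.45) not passing. SAM called 4 of them higher, 7 were higher and 1 lower at an unadjusted p below 0.05, 0 to 1 stayed called without an array, and 0 in the fit of all probe sets. The summed signal of the list was 2187 and 2075 in WT AM against 2472 and 2429 in TREM2-/- AM. Neutrophil markers had 0 of 12 called by limma (1 by SAM and 3 higher at an unadjusted p below 0.05), with Mmp8 at 0.21 and Csf3r at 0.64, and summed signals of 928 and 895 against 1023 and 1045. Eosinophil markers had 1 of 6 higher, Alox15 (1.52), with Prg3 at -0.07 and a list median of -0.01. Their summed signals were 193 and 187 against 294 and 285, and without Alox15 they were 139 and 130.5 against 133 and 127. Their part in the results for Alas2, Slc40a1, Fabp1 and Spic was not tested.

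Each gene was centred on its own mean over the 4 arrays. Among the 19946 genes, those outside the measured members that lay nearest to each called member were then found by Euclidean distance. Nearest to Alas2 were Alox15, a lipoxygenase that is also on the eosinophil list (distance 0.086), the phosphatase gene Ptprs (0.158) and Tmem176b (0.189). Their differences were 1.52, 1.30 and 1.26. Nearest to Slc40a1 were Cfp, which encodes properdin of the complement system (0.0769), F3, which encodes tissue factor (0.099), and Cd74, the invariant chain of class II antigen presentation (0.107). Their differences were 0.91, 0.80 and 0.86. With 4 arrays in 2 groups, such a distance reflects mainly the size of the difference.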

How the data were processed

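RNA of WT and TREM2-/- AM was measured on 2 arrays per genotype, each from a pool of mice. RMA was applied by the authors to all arrays together, and 1 log2 value per probe set was deposited. RMA (no version) and the build mm9 are named in the submitters' processing notes. RMA corrects background and equalizes the distributions of the arrays, so a shift of most genes would not be seen, and differences of dim genes are compressed. Scanner intensities were not analysed here. The number of arrays, 2 per genotype, limits the precision.

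Of 35557 probe sets, 21797 had 1 symbol in the platform annotation, 1613 had several and 12147 were not listed. Of the former, 21698 matched RefSeq genes (GRCm38.p6) by gene identifier. Where several probe sets named a gene (999 genes), the brightest by mean log2 value stood for it. No filter on low values was applied, so all 9 measured members were tested.

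The two-sided moderated test of limma 3.58.1 (lmFit, then eBayes) was run in R 4.3.3 on the 19946 genes, with p-values adjusted after Benjamini-Hochberg and called below 0.05. Alternatives were SAM at a false-discovery rate of 5%, run from own code, and a t-test. Others were robust variance with an intensity trend, a replicate block, quantile normalization and median centring. The rest were keeping genes of mean log2 6 or more, averaging a gene's probe sets, a fit of all probe sets, and leaving out each array. On simulated data with 19946 genes, limma recovered 20.3%, 91.6% and 99.4% of genes changed by 0.5, 1 and 2 on the log2 scale. Of its calls, 4.03% were false. The simulated errors were independent and drawn from the variance model that limma had fitted. The rates thus hold under that model and do not check it for these pooled arrays.

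Named were all members, of each list the called genes and the 2 with the highest mean, Trem2, and the 3 genes nearest to each called member. Gata1, Tmem176a, Ms4a7, Maf, Folr2 and Lyve1 were named outside this rule. The members and lists were chosen with earlier results of these data known. Motifs were searched in RefSeq promoter windows of 250 bases with Python 3.11.15.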

Additional observations from a re-analysis of the deposited data

How the results depend on the processing

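The 9 measured members, 2 of them called, were recomputed under each alternative. Each kept its direction in every one, 13 for Hamp and Cp, which the filter on means of at least 6 removed, and 14 for the others. The size moved by over 1.5 times for Hamp (-0.50 to -0.03), Fech (0.03 to 0.17), Tfrc (-0.26 to -0.09), Steap3 (-0.21 to -0.08) and Cp (0.21 to 0.48), none of which was called in any. The t-test called 4 members at an unadjusted p below 0.05, adding Alas1 (-0.14) and Slc11a2 (-0.19). After Benjamini-Hochberg adjustment it called 0, losing Alas2 (1.44) and Slc40a1 (0.84). The fit of all probe sets called 1, losing Slc40a1 (0.84), and the intensity trend with robust variance also called Alas1 (-0.14). Leaving out each array in turn left 1 to 1 member called, Alas2, with Slc40a1 at 0.79 to 0.89 and not passing.

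Of the 77 pathway genes, 4 were called. The t-test called 16 unadjusted and 0 adjusted, the intensity trend 14, quantile normalization 2, the filter 7, the fit of all probe sets 1, and leaving out an array 1 to 1. Over all genes, the 86 higher and 27 lower calls became 379 and 290 with the intensity trend, 207 and 150 with the filter, 173 and 19 with SAM, 782 and 1052 with the unadjusted t-test, 0 and 0 with the adjusted one, 12 and 2 in the fit of all probe sets, and 22 to 43 and 4 to 7 without an array. The cause of these changes was not tested. The replicate block called 2 members and 4 pathway genes, and among the named markers it ended the call of Cd14 (0.56). Deviations of replicate 1 from the group means correlated at -0.05 between the genotypes. That shows no strong shared replicate effect, but cannot tell whether the arrays were processed in pairs. Dim genes, Hamp among them, have little signal over background, and differences of 0.5 were seldom recovered in simulated data.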
